A study of Arabidopsis halleri subsp. gemmifera and Arabidopsis thaliana with 4 samples.

Results

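Ferritins and the vacuolar iron transporter family are the genes through which Arabidopsis stores iron, and 10 of them were followed in root RNA of Arabidopsis halleri ssp. gemmifera and of A. thaliana. The 10 loci were taken by their identifiers, 4 ferritin genes (FER1 to FER4), the vacuolar iron transporter gene VIT1 and 5 VIT1-like genes (VTL1 to VTL5), out of 33602 loci in the deposited tables. The first group was A. halleri ssp. gemmifera, a zinc and cadmium accumulator, with 2 root libraries, and the other was A. thaliana with 2 root libraries. The labels give no accession, age or genotype for either species and do not say how many plants a library held. All 4 libraries came from 1 hydroponic control solution with 10 µM NaFeEDTA, 0.8 µM ZnSO4 and 0.3 µM CuSO4, so no iron treatment was compared. The labels call the replicates biological without saying that they came from separate plants or cultures. The p-values measure the spread between these libraries, which may then be technical in part.

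Iron that a cell does not use at once is toxic, and plants put it away in plastids and vacuoles. Ferritin is a protein shell, found mainly in plastids, that oxidises iron and holds it as a mineral. VIT1 and its shorter relatives sit in membranes, VIT1 in that of the vacuole, and carry iron away from the cytosol. Ferritin transcripts are known to rise with excess iron, and transcripts of VTL1, VTL2, VTL3 and VTL5 are annotated in RefSeq as repressed when iron is scarce.

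The A. halleri libraries held 16335761 and 15497893 assigned reads, and those of A. thaliana 18127031 and 22762183. A. halleri reads, too, were assigned to A. thaliana transcript models, so a difference in transcript level and a difference in how well A. halleri reads match the model cannot be told apart. All 12 root markers had at least 10 reads in each of the 4 libraries, and 6 were higher, 2 lower and 4 not called, with PYK10, COBL9 and GL2 at log2 2.11, 1.34 and 1.33. On the first model of the locus alone GL2 stood at -1.07. Of all tested loci 35.7% were called higher, 36.8% lower and 72.5% in either direction. The markers of green tissue stood apart: 19 of 20 tested were higher in A. halleri, with a median log2 fold change of 3.22, and LHCA2, PSAE1 and PSBQ2 lay between 4.25 and 4.67. Summed over 22 such markers, they reached 387 and 502 CPM (counts per 1000000 assigned reads) in the A. halleri libraries and 73.3 and 67.2 CPM in the A. thaliana libraries.

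The 5 VTL genes are close relatives, and the stretch in which VTL1 and VTL3 share their longest run of identical bases shows how alike and how different the models are on which reads were placed. The lines give 72 coding bases of each gene, 5′ to 3′, from RefSeq's TAIR10.1 genome and annotation, and capitals mark bases that differ from VTL1. All 5 lie on the plus strand, at chr1:7404557-7404628 for VTL1, chr1:28829429-28829500 for VTL2, chr3:15538900-15538971 for VTL3, chr3:15565419-15565490 for VTL4 and chr3:9174613-9174684 for VTL5.
VTL1: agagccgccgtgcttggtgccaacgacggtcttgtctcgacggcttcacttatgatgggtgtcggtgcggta
VTL2: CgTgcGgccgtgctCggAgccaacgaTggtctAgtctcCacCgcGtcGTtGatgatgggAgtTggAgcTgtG
VTL3: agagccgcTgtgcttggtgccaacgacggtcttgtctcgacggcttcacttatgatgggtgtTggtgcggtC
VTL4: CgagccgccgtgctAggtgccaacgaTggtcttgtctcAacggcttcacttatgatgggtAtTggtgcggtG
VTL5: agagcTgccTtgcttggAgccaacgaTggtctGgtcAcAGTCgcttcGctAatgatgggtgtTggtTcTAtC
In these 72 bases VTL3 differed from VTL1 at 3 positions, VTL4 at 7, VTL5 at 17 and VTL2 at 18. Over the whole coding sequence VTL1 shared 88.7% of aligned bases with VTL3, 87.8% with VTL4, 77.1% with VTL2 and 68.5% with VTL5. VTL3 and VTL4, which lie 25805 bases apart on chromosome 3 with 7 other loci between them, shared 89.9%. The longest identical run in their transcripts was 53 bases for VTL1 with VTL3 and 14 bases for VTL1 with VTL5. The ferritin genes were less alike than the closest VTL genes, from 68.7% of coding bases for FER1 with FER3 to 79.3% for FER3 with FER4. The tables counted all reads of the VTL genes with reads, and of FER2, FER3 and FER4, as unique to 1 model.

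Levels are given as RPKM, reads per 1000 bases of model and 1000000 reads of the library, which allow genes of different length to be compared. FER1 was the most abundant of the 10 genes in both species, and the leading VIT family gene differed between them. FER1 ranked 635 among 23417 loci with reads in A. halleri and 2259 among 23903 in A. thaliana. In A. halleri the ferritins followed in the order FER1, FER3, FER2, FER4, and in A. thaliana in the order FER1, FER3, FER4, FER2. No neighbours in the 2 ferritin orders overlapped between their libraries. In the VIT family of A. halleri, VTL1 (14.2 ± 3.92 RPKM) and VTL2 (10.5 ± 1.26 RPKM; SD, n = 2) stood above the rest, and their means differed by less than the SD of VTL1. In A. thaliana VTL5 (47.2 ± 2.56 RPKM) came first, then VTL1 (28.8 ± 4.27 RPKM) and VTL2 (7.27 ± 1.51 RPKM). VTL3 and VIT1 stood at 1.35 ± 0.0970 and 0.245 ± 0.00913 RPKM in A. halleri, and at 0.119 ± 0.0383 and 0.0286 ± 0.0404 RPKM in A. thaliana, where both rest on 3 reads or fewer over the libraries.

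**Figure D1:**
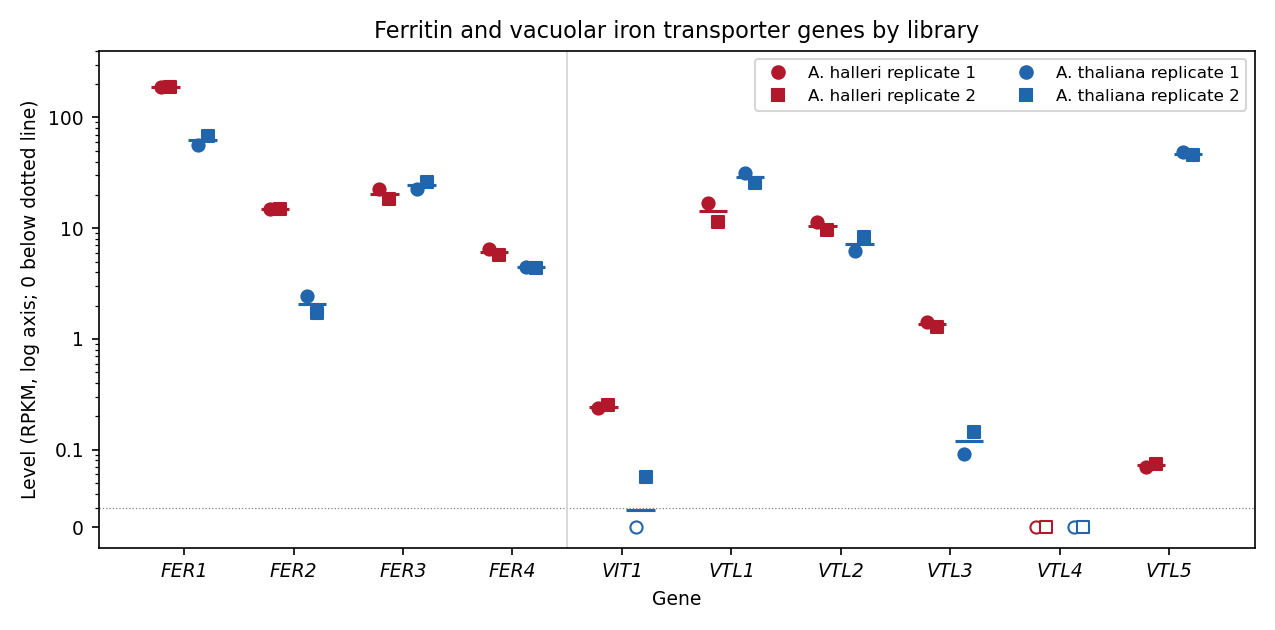
Level of each of the 10 genes in each library, in RPKM on a log axis, with circles for replicate 1, squares for replicate 2 and a line at the mean of a species; open symbols under the dotted line are 0. FER1 lies at 188 and 187 RPKM in A. halleri, above 56.7 and 68.4 in A. thaliana, and VTL5 at 0.0704 and 0.0742 RPKM in A. halleri, below 49.0 and 45.4 in A. thaliana.

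The species were compared over all loci to ask which genes differ in roots given the same iron, zinc and copper, and 8 of the 10 genes had enough reads to be tested. FER1, FER2 and VTL3 rose in A. halleri, VTL1 and VTL5 fell, and FER3, FER4 and VTL2 stayed above the threshold of 0.05 for the adjusted p from edgeR (quasi-likelihood F test). That makes 5 of 8 called, in a comparison in which 72.5% of the 20899 tested loci were called. The 3 higher genes stand against 35.7% of all tested loci called higher, and the 2 lower genes against 36.8% called lower. The 5 called genes also differed by at least 2-fold, which 40.3% of all tested loci did. VTL3 and VTL5 are among these 5, and they passed the filter on low counts only through the species in which they were high, so they had to differ. The counts of calls are near the background of the comparison, and what follows describes single genes. In all 8 tested genes the libraries of the 2 species did not overlap, which held for 87.2% of tested loci. In bulk root RNA, fewer cells of a type and less RNA per cell cannot be told apart.

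**Figure D2:**
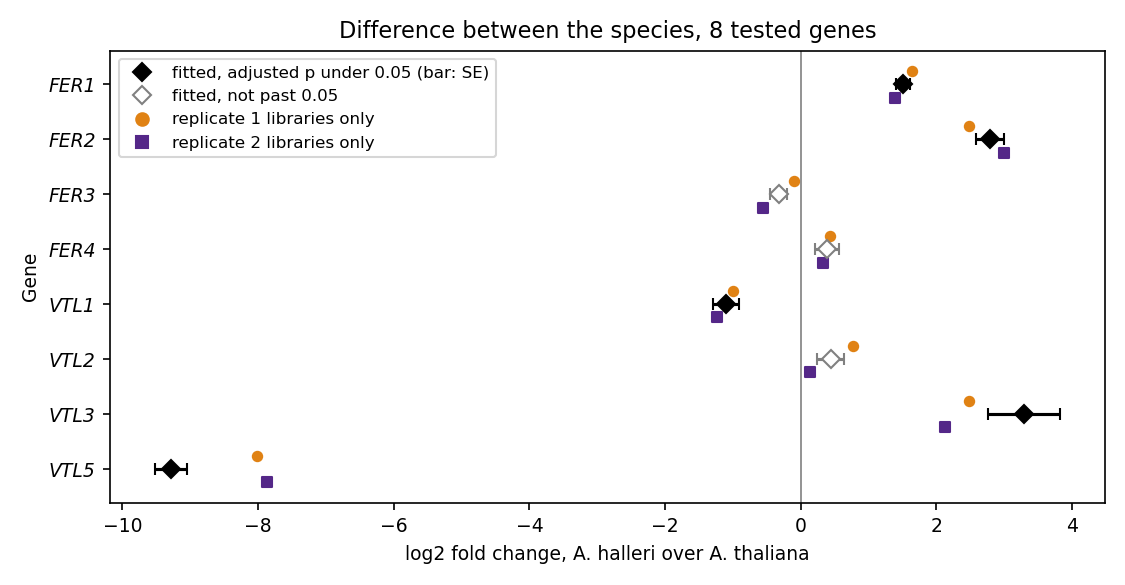
Log2 fold change of A. halleri over A. thaliana for the 8 tested genes, fitted by edgeR with its SE as bars and filled where the adjusted p was under 0.05, beside the difference between the replicate 1 libraries and between the replicate 2 libraries on log2 CPM with a prior count of 2. VTL5 lies at -9.28, far below the other genes, and FER1, FER2 and VTL3 lie above 0. The bars of VTL5 and VTL3 are too short, as these genes had 1 or 2 reads per library in 1 species.

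FER1 (AT5G01600, TAIR10.1 chr5:227953-230051, minus strand, 8 exons), the ferritin best known for its response to iron excess, carried most ferritin RNA and was higher in A. halleri. It had 188 and 187 RPKM in the A. halleri libraries, from 4374 and 4121 reads, against 56.7 and 68.4 RPKM in the A. thaliana libraries, from 1461 and 2212 reads. Both A. halleri libraries were far above both of A. thaliana and nearly equal to each other. The fitted difference was 2.84-fold (log2 1.51, SE 0.11, edgeR adjusted p = 1.74e-05), with 1.64 between the replicate 1 libraries and 1.39 between the replicate 2 libraries on the log2 scale. FER1 is the 1 member with reads not unique to a model, 71.8% to 74.7% of its reads being unique, and with unique reads alone the log2 value was 1.53. An antisense RNA gene, AT5G01595, overlaps FER1 on the other strand and had 1 and 4 reads in A. halleri roots and 10 and 37 in A. thaliana roots. The strand setting of the counts is not given, and the counted model of AT5G01595 has 939 bases where RefSeq's transcript has 264, so the exonic overlap in the models used is not measured here.

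FER2 (AT3G11050, chr3:3463477-3465506, plus strand, 8 exons), known as the ferritin of seeds, had the largest fold among the ferritins and ranked 8188 among 23417 loci with reads in A. halleri and 16726 among 23903 in A. thaliana. Its level was 14.96 and 14.95 RPKM in A. halleri, against 2.42 and 1.71 RPKM in A. thaliana. This rests on 251 and 238 reads in A. halleri roots and 45 and 40 reads in A. thaliana roots. The fitted difference was 6.91-fold (log2 2.79, SE 0.20, edgeR adjusted p = 1.77e-05). The same direction held between the libraries of each replicate number, at log2 2.48 and 2.99.

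Reads of seed markers were few. The 13 seed markers summed to 33 and 35 reads in the A. halleri libraries and 3 and 1 reads in the A. thaliana libraries. Of these markers 9 were at 0 in each A. halleri library, and 10 and 12 in the A. thaliana libraries, and the storage protein genes CRU3, SESA1 and SESA3 were at 0 in all 4. The storage protein gene CRA1 had 12 and 8 reads in A. halleri roots and 0 in both A. thaliana libraries, and CRB had 8 and 10 reads in A. halleri roots and 1 and 0 in A. thaliana roots. OLEO2, an oil body protein, had 12 and 15 reads in A. halleri and no read in A. thaliana. The part of these reads in the difference of FER2 was not tested.

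A relative of FER2 went the other way. AT3G61010 (chr3:22570958-22575310, minus strand), annotated as a ferritin/ribonucleotide reductase-like family protein, shares 94.8% of bases with FER2 over 172 bases, 15.0% of the FER2 transcript. It had 23 and 27 reads in A. halleri roots and 275 and 334 in A. thaliana roots. The reads of both loci together came to 274 and 265 for A. halleri roots and 320 and 374 for A. thaliana roots. These sums are not scaled to library size, and both A. thaliana libraries were larger than both of A. halleri, so they show no species difference by themselves. All FER2 reads were unique in every library, and the part of the shared bases in either difference was not tested.

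FER3 (AT3G56090, chr3:20813904-20816035, minus strand) and FER4 (AT2G40300, chr2:16831109-16833294, minus strand), the other ferritins of vegetative tissue, did not pass the test. FER3 had 22.7 and 18.4 RPKM in A. halleri and 22.8 and 26.0 RPKM in A. thaliana, and its adjusted p in edgeR was 0.0536 (log2 -0.33, SE 0.13). FER3 was called lower with another scaling (RLE size factors) and with no filter beyond 1 read. Without A. halleri replicate 1 its log2 value was -0.47 (edgeR adjusted p = 0.0263) and without A. thaliana replicate 1 it was -0.41 (edgeR adjusted p = 0.0293). Without A. halleri replicate 2 it was -0.20 (edgeR adjusted p = 0.237), and leaving out A. thaliana replicate 2 gave -0.23 (edgeR adjusted p = 0.218). FER4 had 6.50 and 5.69 RPKM in A. halleri and 4.50 and 4.33 RPKM in A. thaliana, with log2 0.39 (SE 0.18, edgeR adjusted p = 0.0905). FER4 was past the threshold by limma on the deposited RPKM values plus 1, which are scaled to the library totals alone (log2 0.39, adjusted p = 0.0279). In RefSeq's annotation FER4 shares 118 exonic bases, 9.42% of its exons, with AT2G40290 on the same strand. AT2G40290 had 1752 and 1861 reads in A. halleri roots and 1771 and 2330 reads in A. thaliana roots. The counted model of FER4 has 1054 bases where RefSeq's transcript has 1252, so the overlap in the models used is not measured here.

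The upstream bases of FER3 and FER4 are shown because they were the 2 of the 10 genes with a G-box, CACGTG, a palindrome bound by many basic helix-loop-helix factors, within 250 bases before the annotated start. The lines give the last 110 bases before the start, 5′ to 3′ on the gene's strand, from RefSeq's TAIR10.1 (FER3 at chr3:20816036-20816145, FER4 at chr2:16833295-16833404, both minus strand), with the G-box in capitals.
FER3: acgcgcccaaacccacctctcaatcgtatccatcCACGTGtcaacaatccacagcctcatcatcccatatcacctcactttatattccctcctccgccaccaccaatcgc
FER4: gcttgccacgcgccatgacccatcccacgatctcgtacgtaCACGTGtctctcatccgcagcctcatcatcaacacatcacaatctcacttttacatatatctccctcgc
The G-box began 76 bases before the start of FER3 and 69 bases before that of FER4, and the longest run shared by the 2 windows of 250 bases was 13 bases. Of 27443 protein-coding genes 6.49% had a G-box in this window. The phosphate starvation element GNATATNC, searched on both strands, was in none of the 10 windows and in 5.46% of all. Such matches describe the A. thaliana sequence only.

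Together the 4 ferritin genes reached 233 and 226 RPKM in A. halleri and 86.5 and 100.4 RPKM in A. thaliana, with a ratio of A. halleri to A. thaliana means of 2.46. FER1 made up 81.0% and 82.7% of this sum in A. halleri roots and 65.6% and 68.1% in A. thaliana roots. The share of FER3 was 9.75% and 8.15% in A. halleri roots and 26.4% and 25.9% in A. thaliana roots. Without FER1 the sum was 44.1 and 39.1 RPKM in A. halleri and 29.7 and 32.0 RPKM in A. thaliana. The green tissue markers, at 387 and 502 CPM in A. halleri libraries and 73.3 and 67.2 CPM in A. thaliana libraries, were higher in the same libraries as FER1, and their part in its level was not tested.

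**Figure D3:**
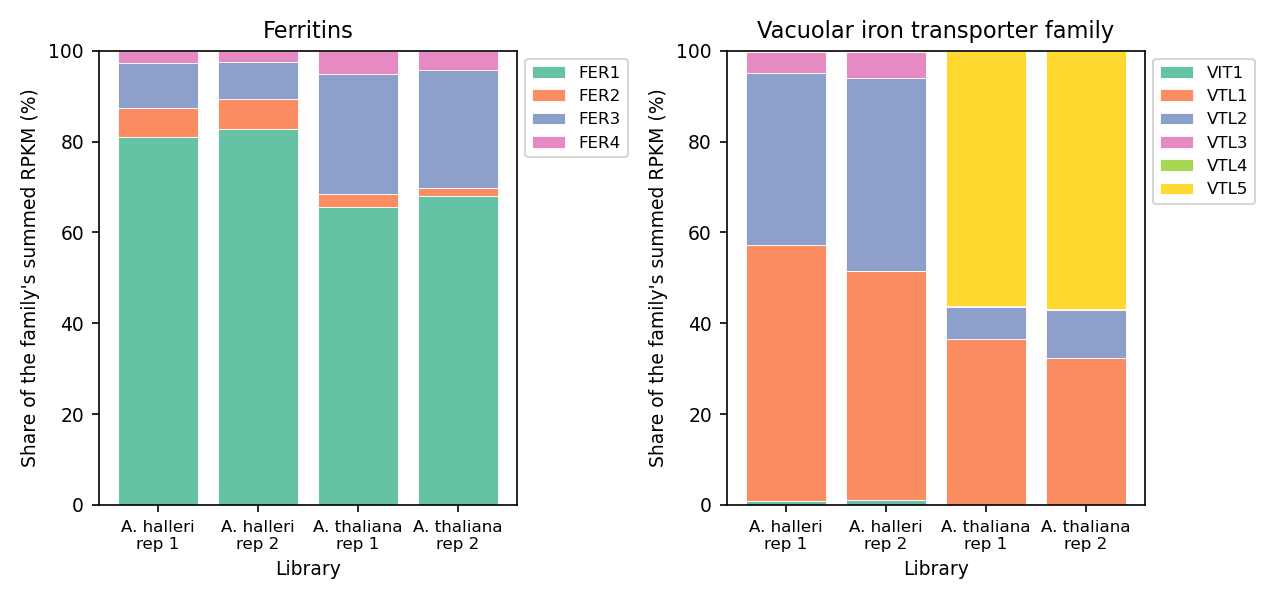
Share of each gene in the summed RPKM of its family, in percent, for the ferritins and for the VIT family, with 1 bar per library. FER1 fills 81.0% and 82.7% of the ferritin bars of A. halleri, against 65.6% and 68.1% for A. thaliana, and VTL5 fills 56.3% and 57.0% of the VIT family bars in A. thaliana and almost nothing in A. halleri.

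The VIT family differed most through VTL5 (AT3G25190, chr3:9174398-9175866, plus strand, 2 exons), a VIT1-like gene related to nodulin 21 of legumes. It had 1 read in each A. halleri library against 773 and 899 in the A. thaliana libraries. That is 0.0704 and 0.0742 RPKM in A. halleri and 49.0 and 45.4 RPKM in A. thaliana, where VTL5 was the most abundant gene of the family. Per scaled library size the A. thaliana reads were 688 times those of A. halleri, with a 95% exact interval of 190 to 5687 that covers counting error only (fitted log2 -9.28, SE 0.23, edgeR adjusted p = 3.18e-07). With 1 read in each A. halleri library this SE is too small, and the exact interval is far wider. Of the 20899 tested loci, 1.64% had a larger absolute log2 value. That rank rests on 1 read in each A. halleri library and adds no support. VTL5 passed the filter on low counts only through A. thaliana.

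VTL1 to VTL4, the relatives of VTL5, summed to less in A. halleri. Together they had 443 and 315 reads in A. halleri roots and 628 and 713 reads in A. thaliana roots, which is 29.7 and 22.3 RPKM in A. halleri and 38.1 and 34.2 RPKM in A. thaliana. The relatives share 63.9% to 68.5% of aligned coding bases with VTL5. How well VTL5 reads of A. halleri match the A. thaliana model, and whether any were placed on these relatives, was not tested.

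VTL1 (AT1G21140, chr1:7404328-7405426, plus strand, 1 exon), which can carry iron into the vacuole of yeast, was lower in A. halleri. It had 17.0 and 11.4 RPKM in A. halleri against 31.8 and 25.8 RPKM in A. thaliana, from 249 and 159 reads in A. halleri roots and 518 and 527 reads in A. thaliana roots. The fitted value was log2 -1.10, or 2.14-fold lower (SE 0.19, edgeR adjusted p = 0.00149), with -0.997 and -1.23 within the replicate numbers. The A. halleri libraries differed from each other more than for the ferritins, and both stayed under both A. thaliana libraries. In edgeR's test against a 2-fold difference VTL1 was not past the threshold (adjusted p = 0.350).

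VTL2 (AT1G76800, chr1:28829243-28830278, plus strand, 1 exon), also an iron carrier when made in yeast, did not pass the test. It had 11.4 and 9.58 RPKM in A. halleri and 6.20 and 8.33 RPKM in A. thaliana (log2 0.44, SE 0.19, edgeR adjusted p = 0.0742). Its log2 difference was 0.77 within replicate 1 and 0.13 within replicate 2. Without A. thaliana replicate 2 it was 0.67, with an edgeR adjusted p of 0.0191, and with upper-quartile scaling 0.52, with an edgeR adjusted p of 0.0454. Without A. thaliana replicate 1 it was 0.25 (edgeR adjusted p = 0.318). Leaving out an A. halleri library gave 0.33 (replicate 1, edgeR adjusted p = 0.270) or 0.54 (replicate 2, edgeR adjusted p = 0.0864). The share of VTL2 in the summed RPKM of the VIT family was 37.8% and 42.4% in A. halleri roots and 7.12% and 10.5% in A. thaliana roots, a difference that moves with VTL5.

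VTL3 (AT3G43630, chr3:15538816-15539418, plus strand, 1 exon) was barely expressed and higher in A. halleri. It had 14 and 12 reads in A. halleri roots against 1 and 2 reads in A. thaliana roots. Scaled to library size the ratio was 10.5, with a 95% exact interval of 3.23 to 54.4 from counting error (fitted log2 3.28, SE 0.53, edgeR adjusted p = 0.000965). With 1 and 2 reads in the A. thaliana libraries this SE is too small as well. Its model holds the coding sequence alone, 603 bases. VTL1, which shares the 53-base run with it, had 408 reads over both A. halleri libraries and 1045 over both of A. thaliana, and the part of misplaced VTL1 reads in the count of VTL3 was not tested.

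The other 2 genes were not tested for want of reads. VTL4 (AT3G43660, chr3:15565224-15566047, plus strand, 1 exon) had 0 reads in all 4 libraries, which allows up to 0.223 and 0.235 RPKM in A. halleri and 0.201 and 0.160 RPKM in A. thaliana at 3 reads per library. VIT1 (AT2G01770, chr2:334663-336462, minus strand, 4 exons), which loads iron into vacuoles of the embryo, had 3 reads in each A. halleri library against 0 and 1 in the A. thaliana libraries. The ratio of 7.29 had a 95% exact interval of 0.884 to 335, and in RefSeq's annotation VIT1 shares 98 exonic bases with RR14 on the other strand. The counted model of VIT1 has 769 bases where RefSeq's transcript has 902, so this overlap too is not measured in the models used. Neither gene was detected at a level that this depth could compare.

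As a family, the 6 VIT genes summed to 30.0 and 22.6 RPKM in A. halleri and 87.1 and 79.7 RPKM in A. thaliana. The ratio of the means was 0.316, and without VTL5 and VIT1, for VTL1 to VTL4, it was 0.719. The ferritin sum was higher and the VIT family sum lower in both A. halleri libraries than in both A. thaliana libraries.

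Other genes that move iron between compartments were read from 5 lists of 18 loci in all, of which 17 were tested. Among them 8 rose in A. halleri, 4 fell and 5 were not called, against 35.7% of all tested loci called higher, 36.8% called lower and 72.5% called in all. Their median log2 was 0.39, against -0.01 over all tested loci. NRAMP3 (AT2G23150), which releases iron from the vacuole and so acts opposite to the VIT family, was 14.7-fold higher, at 355 ± 11.2 CPM in A. halleri roots and 24.0 ± 1.97 CPM in A. thaliana roots (SD, n = 2; CPM of single genes are on TMM-scaled library sizes; edgeR adjusted p = 3.32e-07). Its partner NRAMP4 (AT5G67330) was not called (log2 -0.15, edgeR adjusted p = 0.173). Of the 5 tested plastid iron genes 4 were higher and 1 lower, led by YSL6 (AT3G27020), a plastid carrier of iron, at 3.21-fold, its relative YSL4 (AT5G41000) at 2.24-fold and MFL1 (AT5G42130), a carrier of the plastid envelope, at 2.11-fold. Against a 2-fold difference 1 of them was called higher, as were 3073 of all 20899 tested loci. The green tissue markers moved with these plastid genes, with 19 of 20 higher and a median log2 of 3.22, and their part in these values was not tested. The 1 lower call, NAP14 (AT5G14100), named after its values were seen, was lost in DESeq2 and when either A. halleri replicate 2 or A. thaliana replicate 1 was left out.

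The remaining lists went different ways. FPN2 (AT5G03570), a ferroportin of the vacuole, had 0 reads in both A. halleri libraries against 406 and 525 in the A. thaliana libraries. With 3 reads over the 2 A. halleri libraries together as the floor, it was at least 255-fold lower. FPN2 passed the filter on low counts only through A. thaliana, so it had to differ. With unique reads its log2 value was -6.82 (edgeR adjusted p = 0.000830), which adds no support for the same reason. FPN1 (AT2G38460), a ferroportin of the stele, was 3.36-fold higher, and FPN3 (AT5G26820), found in plastids and mitochondria, fell by 0.54 on the log2 scale. Of 5 mitochondrial iron genes 1 fell, the carrier MIT2 (AT1G07030) at log2 -0.59, and 4 were not called. Without A. thaliana replicate 2, 1 gene of that list was called higher. The 2 ER body proteins with a domain like that of VIT1, MEB1 (AT4G27860) and MEB2 (AT5G24290), were higher, by 1.31-fold and 2.46-fold. Without A. thaliana replicate 1 MEB1 was not called (edgeR adjusted p = 0.0574), and with unique reads MEB1 was lower, at log2 -3.03 (edgeR adjusted p = 9.50e-05), and MEB2 stood at 0.65 (edgeR adjusted p = 0.104).

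**Figure D4:**
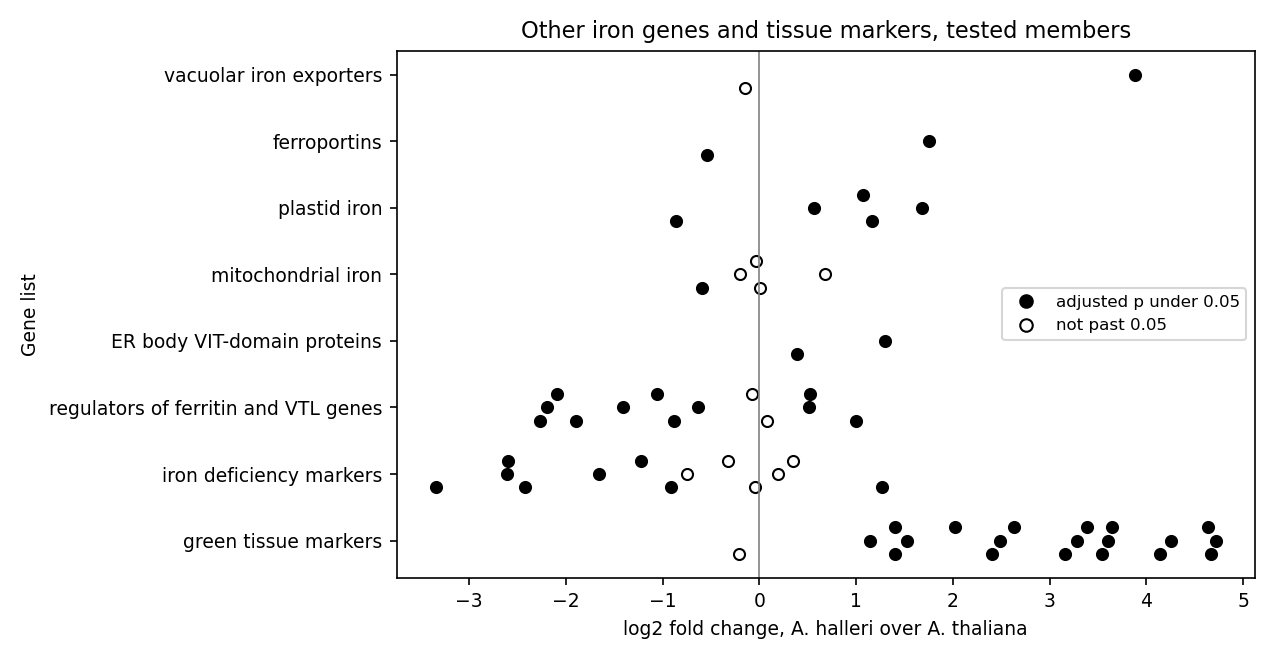
Log2 fold change of A. halleri over A. thaliana for the tested genes of 8 lists, filled where edgeR's adjusted p was under 0.05; FPN2, with 0 reads in A. halleri, is left out. Among 13 regulators 8 are lower and 3 higher, and among 20 green tissue markers 19 are higher, against 36.8% of all tested loci called lower and 35.7% called higher.

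A list of 13 regulators joined those of ferritin or VTL genes with regulators of the iron deficiency response more widely. All 13 were tested, and 8 fell in A. halleri, 3 rose and 2 were not called, at a median log2 of -0.88. Of all tested loci 36.8% were called lower and 72.5% in either direction. PYE (AT3G47640), a repressor that acts with ILR3 on ferritin genes, was 4.80-fold lower, at 5.74 ± 1.21 CPM in A. halleri roots and 27.6 ± 6.09 CPM in A. thaliana roots (SD, n = 2; edgeR adjusted p = 5.76e-05). URI (AT3G19860), an activator of the iron deficiency response, was 4.59-fold lower (edgeR adjusted p = 4.99e-06), or log2 -8.07 on the first model of the locus alone. The ubiquitin ligase BTSL1 (AT1G74770) was 3.71-fold lower (edgeR adjusted p = 3.49e-05). The 3 higher calls, BHLH104, BHLH11 and BTSL2, named after their values were seen, stood at log2 1.00, 0.53 and 0.52. Of 13 tested iron deficiency markers 7 were lower, 1 higher and 5 not called, with a median log2 of -0.91. The transcription factors BHLH100 and BHLH38 and the ferric reductase FRO2 stood at log2 -2.61, -2.60 and -2.42. Without A. thaliana replicate 2, BHLH100 stood at -1.73 and BHLH38 at -1.92. FRO2 stood at -3.10 without A. halleri replicate 1 and at -1.96 without A. halleri replicate 2. The summed level of the 14 listed markers was 525 and 300.0 CPM in A. halleri roots and 823 and 876 CPM in A. thaliana roots. Their 1 higher call, BHLH101 (AT5G04150), named after its values were seen, was lost in DESeq2 and when either A. halleri replicate 1 or A. thaliana replicate 2 was left out, and 2 markers were called higher when A. halleri replicate 2 was.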

How the data were processed

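Total RNA of hydroponic roots was sequenced in 4 libraries, 2 per species, grouped by their titles. Per the file headers, the deposited tables give whole-number counts of total and of unique reads for 41671 A. thaliana models per library, and RPKM values made by the authors from model length and library total. The submitters' processing notes name TAIR 10, while aligner, counter and strand setting are nowhere given in the sources used here. The models of a locus were added up, giving 33602 loci. The species comparison used edgeR 4.0.16 under R 4.3.3 (TMM, filterByExpr, quasi-likelihood F test, species as the only term, Benjamini-Hochberg adjustment over 20899 loci). The code was first run on simulated data in which a small set of loci with many reads was changed. That run covers neither low counts nor a comparison in which most loci differ. SEs are the log2 fold change divided by the root of F, and they understate the error of VTL3 and VTL5, which had few reads in 1 species. The fit had 2 residual degrees of freedom.

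Coordinates, sequences and overlaps come from RefSeq's TAIR10.1 (BLAST 2.17.0, Biopython 1.88). RefSeq's transcripts have the length of the counted model for 38.1% of the models matched by name, and for FER1, VTL3 and VTL4 among the members. Intervals and floors cover counting error only. Alternatives were other scalings, filters, DESeq2 1.42.0, limma 3.58.1 on log2 RPKM plus 1 or 0.1, unique reads, first models, a 2-fold null, a replicate block and leaving out each library. All members and, per list, up to 3 called genes, those furthest from 0 among genes reaching 10 CPM, are named, with exceptions marked. Members and lists were chosen with earlier results of these data known.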

Additional observations from a re-analysis of the deposited data

How the results depend on the processing

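Over 16 alternatives FER1 and FER2 kept their direction and their call, with log2 values of 1.38 to 1.65 and 2.39 to 3.05. VTL3 and VTL5 also did wherever they were tested, with log2 values of 1.07 to 3.64 and -9.44 to -5.49. These 2 genes could be tested only through the species in which they were high, so their kept direction was set in advance and adds no support. Their values are among those counted next. Of 126 member values 114 kept call and direction, 11 passed the threshold that the reported value missed, 1 missed it (VTL1 against a 2-fold difference) and 0 changed sign. The count of called loci, 15161, was 6391 against a 2-fold difference and 13653 to 14146 with 1 library left out. The count of called members, 5, was 3 where every library had to hold 10 reads, a filter that removes VTL3 and VTL5, and 5 or 6 with 1 library left out. By limma on RPKM values 5 members were called higher and 2 lower. With RPKM plus 1, 7545 of 19810 tested loci were called higher and 6735 lower. Against a 2-fold difference 5 of the regulators were called lower and 0 higher, 4 iron deficiency markers lower and 1 plastid iron gene higher. Of all 20899 tested loci 3318 were called lower and 3073 higher against that difference. Upper-quartile scaling moved the median log2 of all loci by 0.09. With the replicate number as a block 14819 loci and 5 members were called. Same-numbered libraries deviated from their species means with a correlation of -0.05, so the numbers were not taken as pairs. Depth limits VIT1, VTL3 and VTL4, with 0 to 14 reads per library.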
